A study of Mus musculus with 4 samples.

Results

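The replication-dependent histone genes were examined in RNA-seq libraries of reconstituted ovaries (rOvaries) from mice fed INK128, an inhibitor of the mTOR kinase, or not fed it. The members were all gene symbols that start with Hist1h, Hist2h, Hist3h or Hist4h, except 1 symbol with a pseudogene suffix. This gave 69 of the 54021 symbols counted: 6 H1, 20 H2A, 18 H2B, 12 H3 and 13 H4 genes, of which 56 carry the name of the Hist1 cluster, 10 of Hist2, 2 of Hist3 and 1 of Hist4. An rOvary is a graft that forms under the kidney capsule of a recipient female from primordial germ cells aggregated with somatic cells of fetal gonads. The recipients were G2 Terc-/- females on a C57BL/6 background, which lack the telomerase RNA and serve as a premature aging model, and both of their ovaries had been removed. The donor fetuses were C57BL/6 mice carrying a ubiquitous actin-GFP transgene, and the gonads taken from them are described as female. The question of the design was how feeding INK128 changes gene expression in the graft. The 2 libraries of the INK128 group (replicates 1 and 2) came from recipients given INK128 in the drinking water at a labelled 0.75 µM per g of body weight, and the 2 Control libraries (replicates 1 and 3) from recipients without INK128. The methods of the paper state the dose in other terms, so the labelled figure is uncertain. All were taken 1 month after transplantation. Each library is bulk RNA of a graft, which holds oocytes, granulosa cells, other donor cells and ingrowing or adjacent cells of the host. Nothing in the labels says that the libraries came from separate animals, so p-values measure only the spread between these samples, which may be technical.

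Library totals were between 19130209 and 23029089 counts, and a floor of 3 counts corresponded to between 0.13 and 0.157 CPM of the library total. CPM below are counts scaled to the library size with a TMM factor for its composition. The labelled tissue was checked on markers: summed granulosa markers were at 3300 to 7991 CPM in every library, while summed oocyte markers were at 1049 and 772 CPM with INK128 and at 759 and 37.7 CPM in Control replicates 1 and 3. Inha was the largest part of the granulosa sum, at 4084 and 5920 CPM with INK128 and 1672 and 2845 CPM in these Controls. Single granulosa markers differed between Control replicates 1 and 3: Amh was at 432.6 and 5.08 CPM, Cyp19a1 at 35.6 and 162.3, and Fshr at 25.5 and 20.8. Kidney markers summed to 60.6 and 79.3 CPM with INK128 and to 403 and 929 CPM in the Controls. Control replicate 1 stood apart in another way, with 1021 counts on 4 Y-linked genes against 0 to 2 in the other libraries, although donors and recipients are described as female. Fold changes were therefore computed with both Controls and with each alone.

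Replication-dependent histones are the H1, H2A, H2B, H3 and H4 proteins made in S phase to package newly copied DNA. The core histones form the nucleosome, and H1 binds the linker DNA. Their genes lie in clusters and mostly lack introns. Their mRNAs are the ones in animal cells that typically end in a conserved stem-loop, bound by SLBP, instead of a poly(A) tail, and they are degraded when DNA synthesis stops. A histone gene can also be transcribed past the stem-loop to a downstream poly(A) signal, which is known from differentiated and resting cells. The libraries were made from poly(A) RNA, which does not select for mRNAs that end at the stem-loop.

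The stem-loops are shown because they are the element that sets these genes apart from other mRNAs. In GENCODE M21 transcripts (GRCm38), a match to the histone stem-loop (a 6-base stem, a 4-base loop and a 6-base stem) lay after the stop codon of 46 members, 22 to 59 bases from it. Among protein-coding genes, 68.7% of members and 0.0917% of other genes, 20 of 21810, held such a match within 100 bases of the stop codon. For 15 members the annotated transcript ended at most 2 bases after the stop codon, where no match could be found. The share of members thus depends on the annotation. The capitals mark the stem-loop, with 5 bases on either side in lower case, on the strand of the gene, 5′ to 3′.
Hist1h1c, chr13:23739507-23739532, plus strand: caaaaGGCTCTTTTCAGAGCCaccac
Hist3h2a, chr11:58955167-58955192, plus strand: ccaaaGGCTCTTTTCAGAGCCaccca
Hist2h2aa1, chr3:96246027-96246052, plus strand: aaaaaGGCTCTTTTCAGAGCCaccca
Hist1h4h, chr13:23531453-23531478, plus strand: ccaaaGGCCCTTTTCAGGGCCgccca
Hist1h4i, chr13:22040961-22040986, minus strand: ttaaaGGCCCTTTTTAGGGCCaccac
The 46 matches took 8 forms. The form in Hist1h1c occurred in 26 members of the H1, H2A, H2B and H3 types, and the form in Hist1h4h in 7 members, all H4.

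Few histone genes were abundant in these poly(A) libraries. The 69 members together took 3088 and 3614 counts with INK128 and 3805 and 3676 in Controls, between 0.0157% and 0.0176% of each library. A count was found for 59 to 65 members per library. By mean CPM over the libraries, 4 members were above 10, 8 were between 1 and 10, and 57 were at 1 or less. The 4 abundant ones, Hist1h1c, Hist1h2bc, Hist3h2a and Hist2h2be, held 80.3% of the summed member CPM, the 8 intermediate ones 10.8% and the remaining 57 only 8.87%. No H3 or H4 gene was among the abundant 4. Per kilobase of annotated exon, Hist1h2bc (34.9 mean CPM per kb) and Hist1h1c (30.4) lay above Hist3h2a (14.4), and Hist2h2be (4.99) lay near the intermediate gene Hist1h4i (4.58).

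**Figure D1:**
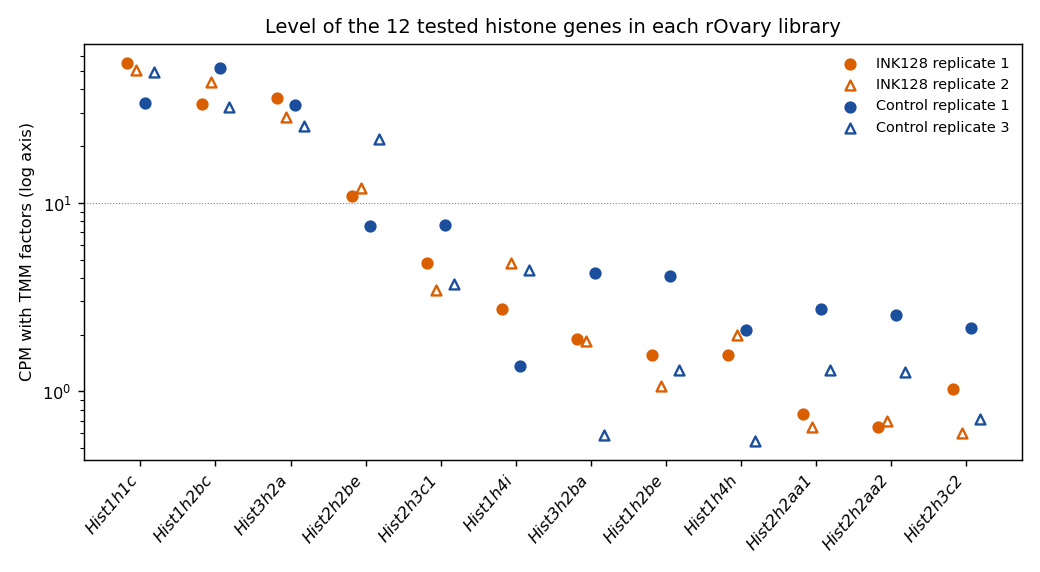
Level in CPM with TMM factors (log axis) of the 12 histone genes with a mean CPM above 1, ordered by mean level, in each of the 4 libraries. Orange symbols are INK128 and blue symbols Control libraries, and the dotted line marks 10 CPM. The groups overlap except in Hist1h1c, where both INK128 libraries are higher, and Hist2h2aa1 and Hist2h2aa2, where both are lower.

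The abundant members were not called changed by INK128. Hist1h1c, which encodes the linker histone H1.2 (ENSMUSG00000036181, chr13:23738808-23740367, 1 exon), was at 55.4 and 50.5 CPM with INK128 and at 34.1 and 49.4 CPM in Control replicates 1 and 3. Both INK128 libraries were higher, but Control replicate 3 lay next to INK128 replicate 2 and far from Control replicate 1. The means were 52.9 ± 3.44 and 41.7 ± 10.9 CPM (SD, n = 2 each), and the log2 fold change was 0.33 (SE 0.25, adjusted p = 0.372 in edgeR's quasi-likelihood test). Hist1h2bc, an H2B gene of the large Hist1 cluster (ENSMUSG00000018102, chr13:23684199-23692908, up to 2 exons), was at 33.4 and 43.6 CPM with INK128 and at 52.0 and 32.5 CPM in the Controls. The INK128 values lay between those of the Controls. Its log2 fold change was -0.14 (SE 0.31, adjusted p = 0.752, edgeR).

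Hist3h2a, an H2A gene outside the main clusters (ENSMUSG00000078851, chr11:58954685-58956830, 1 exon), was at 35.9 and 28.6 CPM with INK128 and at 33.2 and 25.7 CPM in the Controls. The groups overlapped, and the log2 fold change was 0.12 (SE 0.25, adjusted p = 0.751, edgeR). Hist2h2be, an H2B gene of the Hist2 cluster (ENSMUSG00000068854, chr3:96221119-96223738, 1 exon), was at 10.8 and 12.1 CPM with INK128 and at 7.58 and 21.8 CPM in the Controls. Control replicate 1 was the lowest of all libraries and Control replicate 3 the highest. The log2 fold change was -0.37 (SE 0.56, adjusted p = 0.646, edgeR). A gene was called where its adjusted p was under 0.05 and its fold exceeded 1.5 in either direction. This held for 6.37% of 11758 genes whose mean CPM exceeded 10, and for 0 of the 4 histone members. The same 0 of 4 held at an unadjusted p below 0.05, which 36.4% of these genes reached, and with DESeq2, which called 28.6% of them, and limma voom, which called 0.0%. The groups did not overlap for 1 of the 4, against 68.5% of these genes.

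The 8 intermediate members spread more between libraries. Hist2h2aa1 and Hist2h2aa2 are 2 H2A genes of the Hist2 cluster (chr3:96245497-96246082 and chr3:96239749-96240276, 1 exon each), and they showed the lowest INK128 values relative to Control. Hist2h2aa1 had 14 and 14 counts with INK128 and 62 and 31 in Control replicates 1 and 3, or 0.755, 0.647, 2.73 and 1.3 CPM. Hist2h2aa2 had 12 and 15 counts against 58 and 30, or 0.647, 0.693, 2.56 and 1.26 CPM. Both INK128 libraries were below both Controls, and the pair cannot be read as independent genes: all of the 50-base stretches of Hist2h2aa2 and 89.2% of those of Hist2h2aa1 occur in another member as well. Their log2 fold changes were -1.48 (SE 0.68, adjusted p = 0.201) and -1.46 (SE 0.67, adjusted p = 0.203) in the edgeR fit on the 17631 genes whose mean CPM exceeded 1.

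The other 6 intermediate members overlapped between the groups. Among the H3 genes, Hist2h3c1 (chr3:96246685-96248509) had 89 and 75 counts with INK128 against 174 and 89 in the Controls, with a log2 fold change of -0.42 (SE 0.52, adjusted p = 0.588, edgeR). Its neighbour Hist2h3c2 (chr3:96238108-96239127) had 19 and 13 against 49 and 17, with -0.78 (adjusted p = 0.531, edgeR). In both, Control replicate 1 was the highest library. Among the H2B genes, Hist1h2be (chr13:23583670-23621124) had 29 and 23 counts against 93 and 31, with -0.997 (adjusted p = 0.394, edgeR). Hist3h2ba (chr11:58948920-58949533) had 35 and 40 against 97 and 14, with -0.34 (adjusted p = 0.827, edgeR). For Hist3h2ba the INK128 libraries nearly coincided at 1.89 and 1.85 CPM while the Controls stood at 4.28 and 0.588 CPM.

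The H4 genes went the other way in sign. Hist1h4i (chr13:22040636-22041362) had 51 and 104 counts with INK128 and 31 and 105 in the Controls, and its log2 fold change was 0.43 (adjusted p = 0.698, edgeR). Hist1h4h (chr13:23531050-23531519) had 29 and 43 against 48 and 13, with 0.46 (adjusted p = 0.712, edgeR). In Hist1h4i Control replicate 1 was the lowest library, and in Hist1h4h Control replicate 3. Over the 17631 genes 0 were called by edgeR (0.0%), so no call among the 8 could be set against a background of calls. None of the 8 reached an unadjusted p below 0.05, against 32.9% of these genes, and DESeq2, which called 23.8% of all genes there, called 0 of the 12 members, as did limma voom, which called 0.0% of all genes. The groups did not overlap for 2 of the 8, against 66.1% of the genes with a mean CPM above 1. Median log2 fold changes were -0.014 for the abundant 4 and -0.60 for the intermediate 8, beside -0.030 over all genes above 10 CPM and -0.27 over the 5873 genes at 1 to 10 CPM.

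**Figure D2:**
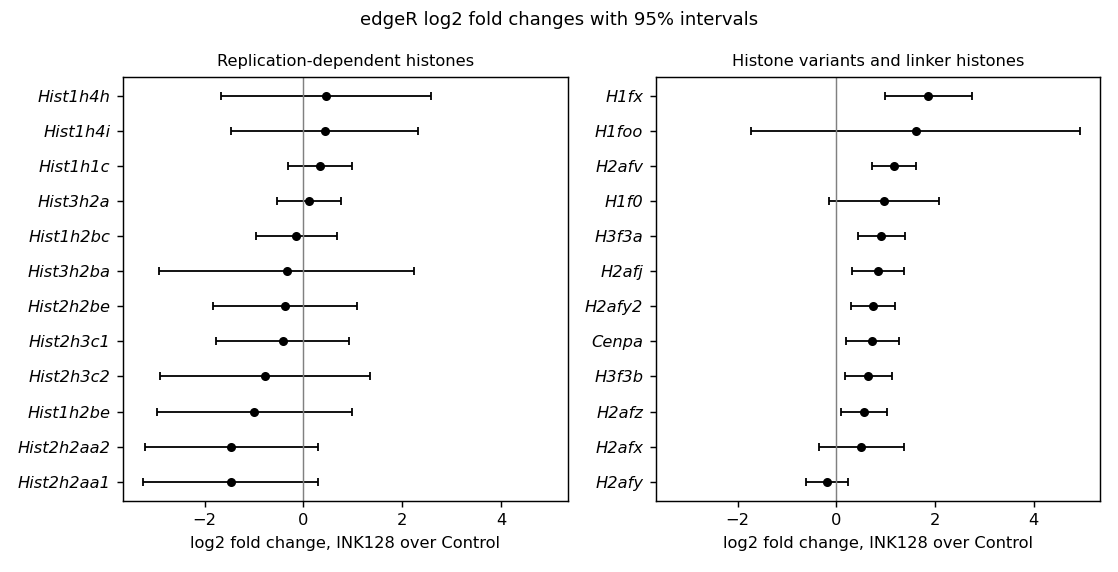
Log2 fold changes (INK128 over Control) with 95% intervals from edgeR for the 12 tested replication-dependent histone genes (left) and 12 histone variant and linker histone genes (right), on the same axis. All 12 intervals on the left span 0, from -1.48 for Hist2h2aa1 to 0.46 for Hist1h4h. On the right 11 of 12 values lie above 0.

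The 57 members at a mean of 1 CPM or less had 297 and 371 counts in all with INK128 and 316 and 264 in the Controls, with at most 37 counts for any of them in a library. They were not tested one by one in the main fits. Both INK128 libraries were higher for 20, lower for 8, and the groups overlapped for 29. The groups thus did not overlap for 28 members, against 39.0% of 10640 genes in the same range of mean CPM, of which 19.2% were higher and 19.8% lower in both INK128 libraries. The INK128-higher members were spread over the types, with 5 of 10 H3, 5 of 11 H4, 4 of 17 H2A, 4 of 14 H2B and 2 of 5 H1 genes. The low-level H3 genes summed to 56 and 83 counts (3.02 and 3.84 CPM) with INK128 and to 43 and 36 counts (1.9 and 1.51 CPM) in the Controls. The low-level H4 genes summed to 3.77 and 3.42 CPM against 2.47 and 2.18, and the H2A genes to 4.04 and 4.9 against 2.6 and 3.4. In these 3 sums both INK128 libraries were higher, while the low-level H1 and H2B sums overlapped between the groups. With 2 samples a group the smallest p of an exact permutation test is 0.333, so the sums were given no test.

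The total over all members was close between the groups, while single histone types differed more. The summed level of all members was 166.5 and 167.0 CPM with INK128 and 167.7 and 154.3 CPM in the Controls, a log2 ratio of 0.051. H1 summed to 57.6 and 52.2 CPM against 37.1 and 50.5, of which Hist1h1c made up nearly all. H2A summed to 41.3 and 34.8 CPM against 41.1 and 31.7, and H2B to 50.6 and 61.9 against 71.8 and 59.0. H2B overlapped between the groups, as did H2A. H3 summed to 8.84 and 7.9 CPM against 11.7 and 5.96, and H4 to 8.09 and 10.2 against 5.95 and 7.14. H4 and H1 were the types in which both INK128 libraries exceeded both Controls, with log2 ratios of 0.48 and 0.33 of the summed CPM. Leaving out a library gave 0.31 to 0.64 for H4 and 0.12 to 0.57 for H1, and without Hist1h1c the H1 ratio was -0.073. In bulk RNA, fewer cells of a type and less RNA per cell cannot be told apart.

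**Figure D3:**
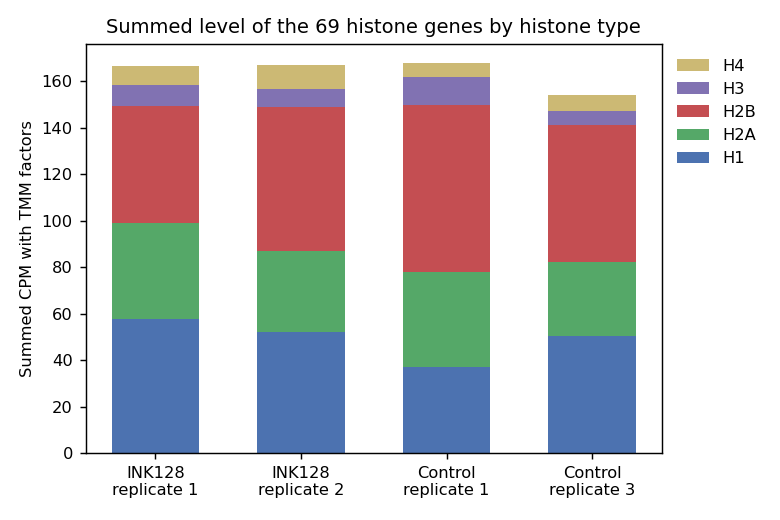
Summed CPM with TMM factors of the 69 histone genes in each library, stacked by histone type. The 4 bars reach 154 to 168 CPM, most of each is H1, H2A and H2B, and H3 and H4 stay at or below 11.7 CPM.

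By cluster, the 56 Hist1 genes summed to 109.8 and 118.3 CPM with INK128 and 106.4 and 98.2 CPM in the Controls. The 10 Hist2 genes summed to 18.8 and 18 CPM against 23.7 and 29.7, a log2 ratio of -0.54, with both INK128 libraries lower. The Hist2 sum rested on different genes in each Control: without Hist2h2be it was 7.98 and 5.96 CPM with INK128 against 16.1 in Control replicate 1 and 7.94 in Control replicate 3, so that the groups overlapped, although the log2 ratio of the sums was then -0.79.

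The Controls disagreed on these genes more than the INK128 libraries did. Over the 12 tested members the median absolute log2 difference was 1.04 between the Controls and 0.30 between the INK128 libraries, against 0.44 and 0.20 over all genes with a mean CPM above 1. For the 8 intermediate members it was 1.23 between the Controls, against 0.68 over the 5873 genes with a mean CPM between 1 and 10. The Controls were over 2-fold apart for 6 of the 12 members (50%), against 20.9% of all genes with a mean CPM above 1, and the INK128 libraries for 0 of the 12, against 2.24%. The gap between the Controls exceeded the log2 fold change for 10 of the 12 members, against 39.4% of genes in the first fit and 39.7% in the second. These counts are descriptions of 2 pairs of libraries.

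Against each Control alone, different members were called. In these fits the lone Control is assumed to vary like the INK128 group. Without Control replicate 1, the library with Y-linked counts, Hist2h2be was lower with INK128 (log2 fold change -0.94, adjusted p = 0.0109, edgeR), and Hist3h2ba (1.70, adjusted p = 0.0456) and Hist1h4h (1.73, adjusted p = 0.0469) were higher. Without Control replicate 3, the library with few oocyte transcripts, Hist1h1c (0.62, adjusted p = 0.0228, edgeR) and Hist1h4i (1.51, adjusted p = 0.0396) were higher. In the same fit Hist1h2be (-1.60, adjusted p = 0.021, edgeR), Hist2h2aa1 (-1.92, adjusted p = 0.0169) and Hist2h2aa2 (-1.88, adjusted p = 0.0204) were lower. No member was called in both fits. With a mean CPM above 10, 1 of the 4 members was called in each fit, against 45.8% of genes without Control replicate 1 (22.7% higher and 23.2% lower with INK128) and 42.6% without Control replicate 3 (21.2% higher and 21.4% lower). With a mean CPM above 1, 3 of the 12 members were called without Control replicate 1, against 45.0% of genes (21.6% higher and 23.4% lower), and 5 of the 12 without Control replicate 3, against 40.9% (19.4% higher and 21.5% lower). The sign of the log2 fold change differed between the fits for 9 of the 12, the exceptions being Hist1h1c, Hist2h2aa1 and Hist2h2aa2. Without Control replicate 1 these exceptions had smaller log2 fold changes of 0.086, -0.85 and -0.86.

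**Figure D4:**
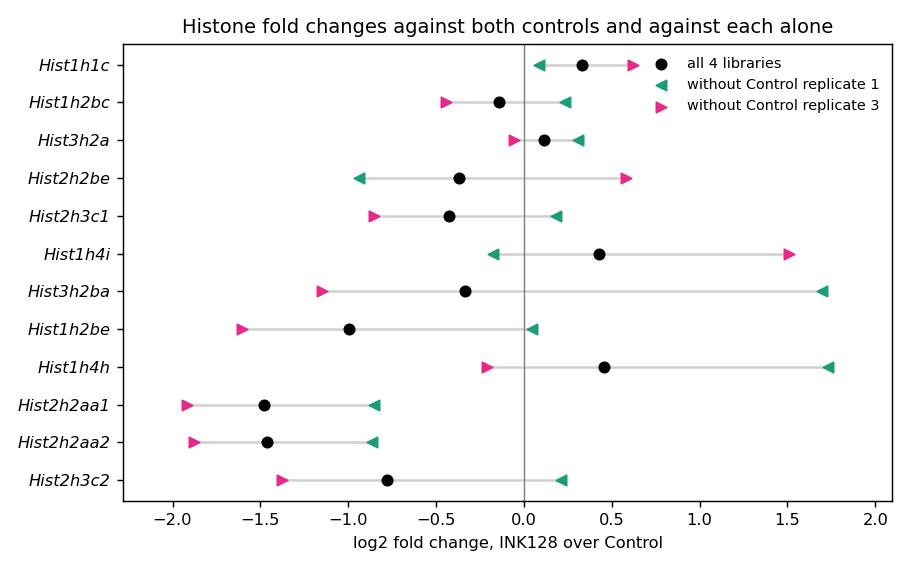
Log2 fold change (INK128 over Control) of the 12 tested histone genes from edgeR with all 4 libraries (black), without Control replicate 1 (green) and without Control replicate 3 (magenta), and the grey line joins the latter values. The line crosses 0 for all but Hist1h1c, Hist2h2aa1 and Hist2h2aa2, and is longest for Hist3h2ba, from -1.15 to 1.70.

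The members fell into classes by their annotated 3′ end. In 23 members the GENCODE M21 transcript ran over 100 bases past the stem-loop, and in 23 it ended within 100 bases of it. The rest were 4 members with no match but over 100 bases after the stop codon, 17 with no match and at most 100 bases, and 2 annotated as pseudogenes. In 15 of those 17 the annotated transcript ended at most 2 bases after the stop codon, so a stem-loop could not be found. The limit of 100 bases was chosen after the data were seen. Members with a stem-loop and a long extension held 60.1% of the summed member CPM, among them Hist1h1c (840 bases after the stem-loop), Hist3h2a (1643) and 5 of the 8 intermediate genes. Of these 23 only Hist1h1c and Hist3h2a were above 10 CPM and 16 were at 1 CPM or less. The 23 members that ended near the stem-loop held 5.06%, and 20 of them were at 1 CPM or less. Median levels per kilobase of exon in these classes were 0.392 and 0.315 mean CPM per kb. The 4 members without a match but with a long 3′ region included Hist1h2bc (742 bases) and Hist2h2be (2192) and held 32.8%.

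A hexamer of the poly(A) signal, AATAAA or ATTAAA, was searched on the transcript strand after the stop codon. It was present in 22 members, which held 91.7% of the summed member CPM and included all 4 abundant genes and 5 of the 8 intermediate ones. The other 13 with it were at 1 CPM or less. The 47 members without it held 8.35%, and 44 of them were at 1 CPM or less. They included 15 whose annotated transcript ended at most 2 bases after the stop codon, and the 2 annotated as pseudogenes. In these no hexamer could be found, so the split depends in part on the annotation. Median levels per kilobase of exon were closer, at 0.44 mean CPM per kb with the hexamer and 0.332 without. Low members with long annotated extensions included Hist1h1d (4884 bases after the stem-loop, mean 0.602 CPM), Hist1h2ac (2010 bases, 0.658 CPM) and Hist4h4 (2445 bases, 0.165 CPM), named after their values were seen.

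**Figure D5:**
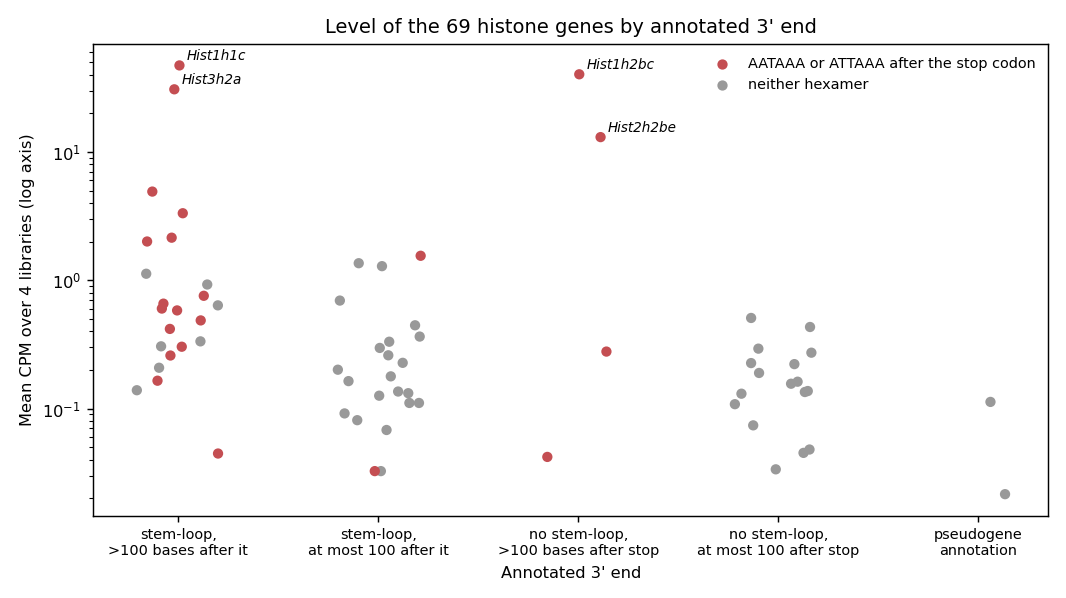
Mean CPM over the 4 libraries (log axis) of the 69 histone genes by annotated 3′ end, with horizontal jitter. Red points hold a poly(A) signal hexamer after the stop codon and grey points do not. The 4 named genes above 10 CPM are all red and all in the classes with more than 100 bases after the stem-loop or stop codon.

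The promoters of the members differed by histone type. RefSeq promoter sequences (GRCm38.p6, 250 bases before to 50 after each gene's start) matched 62 members, and each motif was searched on both strands. TATAAA was in 56.5% of members and 15.7% of 27025 genes, and CCAAT in 85.5% and 41.1%. CCAAT was in every H1, H2A, H2B and H3 promoter but in 3 of 12 H4 promoters. The octamer ATGCAAAT, known as the binding sequence of POU proteins such as OCT1 in H2B promoters, was in 14 members (22.6%) and 1.97% of all genes. It was in 7 of 18 H2A and 7 of 16 H2B promoters, and in none of the H1, H3 and H4 promoters. The sites below are shown as examples, chosen after the search, with the octamer in capitals on the strand of the gene.
Hist3h2a, chr11:58954558-58954581, plus strand: taaggcatATGCAAATtaggaagg
Hist1h2ae, chr13:23571333-23571356, minus strand: gaggttctATGCAAATaagggact
Hist1h2bg, chr13:23571333-23571356, plus strand: agtcccttATTTGCATagaacctc
The last pair is 1 site read from both strands, since Hist1h2ae and Hist1h2bg are divergent neighbours that share their promoter. Hist1h2aa with Hist1h2ba, and Hist1h2ah with Hist1h2bk, also hold the same site. The 14 members thus hold fewer than 14 separate sites.

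Several members share sequence or exons with other genes. The median member had 49.3% of its 50-base stretches in common with another member, 32 members had over 50% and 7 had 0, among them Hist2h2be and Hist3h2ba. How reads with several matches were counted, and whether strand was used, is not given in the sources used here. Exons of 23 members overlap a gene on the opposite strand and those of 7 a gene on the same strand. Trim17, a ubiquitin ligase gene that overlaps Hist3h2a on the same strand, had 556 and 499 counts with INK128 and 692 and 532 in the Controls, beside 665, 618, 753 and 613 for Hist3h2a. Gm20634, which overlaps Hist2h3c1 and Hist2h2aa1, had 103, 91, 244 and 130 counts, beside sums of 103, 89, 236 and 120 for those 2 members. Whether the same reads stand in both rows was not tested. Values of Hist3h2a, Hist2h3c1, Hist2h2aa1, Hist2h2aa2 and of Hist1h2be, which overlaps Hist1h1e, are uncertain for this reason.

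Among genes that act on histone mRNA, the calls by edgeR were of general Sm proteins. Of 23 tested genes of histone mRNA transcription, 3′ processing and turnover, 2 were called higher with INK128 and 0 lower (background 3.18% and 3.19%). All but Zfp473 were above 10 CPM. They were Snrpe (log2 fold change 1.22, adjusted p = 0.0464, edgeR) and Snrpg (1.26, adjusted p = 0.0464), which encode Sm core proteins shared by the spliceosomal snRNPs and the U7 snRNP. The exon length offset took them to 0.56 (adjusted p = 0.188, edgeR) and 0.63 (adjusted p = 0.12). Without INK128 replicate 1 or 2, Snrpe was at 1.04 and 1.37 and Snrpg at 1.17 and 1.32 (adjusted p = 0.381 and 0.438 for both, edgeR). The fits with the offset or without an INK128 library called 0 of all genes. The median log2 fold change of the list was 0.26. At an unadjusted p below 0.05 there were 12 of 23, against 36.4% of all genes with a mean CPM above 10. DESeq2 called 10, against 28.6%, and limma voom called 0, against 0.0%. The factors particular to histone mRNA were not called by edgeR with all 4 libraries over genes of a mean CPM above 10 or 1, while DESeq2 called Lsm10 (adjusted p = 0.0177, DESeq2), Npat (adjusted p = 0.00346) and Casp8ap2 (adjusted p = 0.0191). With the filter of CPM above 10 in at least 2 libraries edgeR called Npat too (adjusted p = 0.0497), and against each Control alone it called Lsm10, Npat and Casp8ap2. It also called Slbp without Control replicate 1 (log2 fold change 1.15, adjusted p = 0.000919) and Lsm11 without Control replicate 3 (-0.71, adjusted p = 0.0423), where 45.8% and 42.6% of all genes were called. Leaving out each library in turn gave 0.48 to 1.15 for Slbp and -0.71 to -0.033 for Lsm11. Slbp, the stem-loop binding protein, was at 97.7 and 80.1 CPM with INK128 and at 63 and 39.6 CPM in the Controls (log2 fold change 0.78, adjusted p = 0.13, edgeR). Lsm10 and Lsm11, which are part of the Sm ring of the U7 snRNP, had log2 fold changes of 0.89 (adjusted p = 0.075, edgeR) and -0.41 (adjusted p = 0.416). The length offset took Lsm10 to 0.094 (adjusted p = 0.809, edgeR) and Lsm11 to -0.20. With it Slbp was at 0.95, Npat at -0.77 and Casp8ap2 at -0.64. Zfp473, a U7-associated zinc finger protein at 1.64 to 6.35 CPM, had 0.091 (adjusted p = 0.94, edgeR). Leaving out each library in turn gave it -0.58 to 1.37, the latter without Control replicate 1. Npat, the cyclin E/CDK2 substrate that activates histone gene transcription, was at 18.3 and 16.3 CPM with INK128 and 33.1 and 33.7 CPM in the Controls (-0.96, adjusted p = 0.0569, edgeR). Casp8ap2, or FLASH, which acts with U7 in cleavage, was at 15 and 15.3 CPM against 25 and 30.7 (-0.89, adjusted p = 0.0752, edgeR). For Slbp, Lsm10, Npat and Casp8ap2 the groups did not overlap.

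Histone variants, whose genes give polyadenylated mRNA throughout the cell cycle in most cases, were far higher in summed CPM than the replication-dependent genes and mostly higher in the INK128 libraries. The 12 variant and linker genes summed to 3087 and 3158 CPM with INK128 and to 1796 and 1833 CPM in the Controls. Both INK128 libraries were above both Controls for 11 of the 12 and below them for 1, H2afy, against 35.2% and 33.3% of genes with a mean CPM above 10. Of the 12, 1 was called higher and 0 lower, where the background was 3.18% and 3.19%. An unadjusted p below 0.05 was reached by 8 (background 36.4%), DESeq2 called 7 (background 28.6%) and limma voom 0. The called gene was H2afv, an H2A.Z paralog, at 151 and 162 CPM against 73 and 65.5 (log2 fold change 1.16, adjusted p = 0.0464, edgeR). The exon length offset took it to 0.56 (adjusted p = 0.122, edgeR), and without INK128 replicate 1 or 2 it was at 1.20 and 1.10 (adjusted p = 0.381 and 0.438). Those 3 fits called 0 of all genes. H3f3a and H3f3b, which encode H3.3, were at 808 and 918 CPM against 464 and 448, and at 873 and 836 CPM against 507 and 573. Their log2 fold changes were 0.91 (adjusted p = 0.0527, edgeR) and 0.65 (adjusted p = 0.0818). The linker histone genes H1fx and H1f0 had 1.86 (adjusted p = 0.0507, edgeR) and 0.97 (adjusted p = 0.174), and H2afz, which encodes H2A.Z, had 0.56 (adjusted p = 0.0998). H2afx, which encodes the damage-response variant H2A.X and holds a stem-loop match like the members, had 0.51 (adjusted p = 0.311, edgeR). With the length offset H2afz and H2afx turned to -0.010 and -0.14, and H3f3a, H3f3b, H1fx and H1f0 were at 0.74, 0.37, 1.16 and 0.45. Leaving out a library gave 0.49 to 1.67 for H1f0 and 0.15 to 0.98 for H2afx. H3f3a and H1fx were called by edgeR with at least 1 count (adjusted p = 0.0248 and 0.00285), with CPM above 10 in at least 2 libraries (adjusted p = 0.0469 and 0.0423) and against each Control alone. Among the variants named here, H2afz and H2afx were also called without Control replicate 1, and H3f3b and H1f0 without Control replicate 3, in fits that called 45.8% and 42.6% of genes.

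Across the variant list the median log2 fold change was 0.79, and it was 0.41 with an offset for exon length in each library, which left 10 of 12 values positive. Exon lengths had a median of 1943 bases for the variants, 534 for the members and 4466 over the genes tested. With that offset all 12 tested histone members had negative log2 fold changes, from -1.95 for Hist2h2aa1 to -0.019 for Hist1h4h. The sign turned for Hist1h1c (-0.31), Hist3h2a (-0.34), Hist1h4h and Hist1h4i (-0.074), and the value of Hist1h2bc moved from -0.14 to -0.86 and that of Hist2h2be from -0.37 to -0.75. An unadjusted p below 0.05 was reached by 1 of the 4 members above 10 CPM and by 2 of the 12 above 1 CPM. The shares of all genes at that p or with a negative value were not computed with the offset. The median log2 fold change of all genes was then -0.040 above 10 CPM and -0.026 above 1 CPM. With the offset edgeR called 0 of all genes, so that no member could be called. Kidney markers moved with the groups as well: Slc34a1 and Lrp2, of the proximal tubule, and Slc22a6 were called lower with INK128, 3 of the 7 markers above 10 CPM (background 3.19%). The median log2 fold change of all 10 markers was -4.03, and 8 of the 10 were below both Controls in both INK128 libraries (background 33.3% above 10 CPM and 34.7% above 1 CPM). The part of host cells in the histone values was not tested.

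Histone chaperones and genes of S phase and mitosis gave no calls by edgeR with all 4 libraries and a mean CPM above 10, or above 1 for Ccne1. Of 18 chaperone genes 0 were called by edgeR (background 6.37%) and 6 reached an unadjusted p below 0.05 (background 36.4%). DESeq2 called 5 (background 28.6%) and limma voom 0, and the median log2 fold change was 0.14. Nasp, an H3-H4 and H1 chaperone, was at 98.8 and 105.2 CPM with INK128 and 69.6 and 55.9 CPM in the Controls (log2 fold change 0.69, adjusted p = 0.0806, edgeR). Of 24 S phase and mitosis genes 0 were called by edgeR, 2 reached an unadjusted p below 0.05 and DESeq2 called 0. The backgrounds were the same 6.37%, 36.4% and 28.6%, and limma voom called 0. For Pcna, the replication clamp, the log2 fold change was 0.58 (adjusted p = 0.0944, edgeR), and for Rrm2, a subunit of ribonucleotide reductase, it was 0.23 (adjusted p = 0.424). The length offset took Pcna to 0.18 (adjusted p = 0.52, edgeR), Rrm2 to -0.092 and Nasp to 0.99. Without Control replicate 1, where edgeR called 45.8% of genes, Nasp (0.86, adjusted p = 0.00315, edgeR) and Pcna (0.70, adjusted p = 0.0116) were called. The G2 and mitosis genes differed in sign. Both INK128 libraries were below both Controls (background 33.3%) for Top2a (-0.55, adjusted p = 0.093, edgeR) and Mki67 (-0.38, adjusted p = 0.199), which the length offset took to -0.15 and 0.070. Both were above (background 35.2%) for Birc5 (0.97, adjusted p = 0.197, edgeR), Cdk1 (0.40, adjusted p = 0.287) and Aurkb (0.21, adjusted p = 0.488, and -0.066 with the offset), named after their values were seen. The median log2 fold change of the list was 0.23, beside 0.051 for the ratio of the summed replication-dependent histone CPM.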

How the data were processed

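The table holds counts of reads per gene symbol, as the authors deposited them, for 4 poly(A) RNA libraries of rOvaries, without normalization and without pooling. Per the labels, RNA was extracted with RNeasy Plus Mini and libraries were made with NEBNext Ultra. Per the paper's methods, reads were trimmed with Trimmomatic, aligned to mm10 with HISAT2 and counted with featureCounts in an annotation named RefGene. Versions of these tools are not given in the sources used here. Of the 54021 symbols, 53447 were found in GENCODE M21 and 38186 in RefSeq with synonyms, so GENCODE models (GRCm38, the mm10 build) were used. RefSeq spans can be much shorter, 725 against 1560 bases of exon for Hist1h1c, so extensions past the stem-loop hold for GENCODE only.

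From the counts, CPM with TMM factors and fold changes were computed with edgeR 4.0.16 in R 4.3.3 (quasi-likelihood test, Benjamini-Hochberg adjustment), over genes with a mean CPM above 10 and, for members below that, above 1. Calls needed an adjusted p under 0.05 and a fold over 1.5. SE came from the fold change and its F statistic. CPM differences between libraries used log2 with a pseudocount of 0.5. Alternatives were DESeq2 1.42.0, limma voom (limma 3.58.1), other size factors, filters and thresholds, an exon length offset, and leaving out each library. The fitting procedure was tested on simulated data. The floor of 3 counts covers counting error only. Named genes were all members above 10 CPM, up to 15 members at 1 to 10 CPM (8 existed), any called member, a set of histone-related genes whatever their values, and further list genes that were called. The members and lists were chosen with earlier results of these data known. Figures were drawn with matplotlib 3.10.9.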

Additional observations from a re-analysis of the deposited data

How the results depend on the processing

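No paired analysis was possible because the groups share only replicate number 1. The count of called members stayed at 0 with DESeq2, limma voom, RLE factors, library totals, the length offset, both other filters and no fold change limit. Limma voom, the length offset and the fits without an INK128 library called 0 of all genes with either filter, as did RLE factors and library totals above 1 CPM, so the 0 was fixed there. The count ranged from 0 to 1 (mean CPM above 10) and 0 to 5 (above 1) when a library was left out, the maximum being without Control replicate 3, with 3 without Control replicate 1. All genes called numbered 749 at mean CPM above 10, 0 above 1, 3105 with at least 1 count and 1562 with CPM above 10 in at least 2 libraries. Library totals moved the median of all genes to -0.16 and -0.22.

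Called genes of the 4 histone-related lists numbered 3 of 77 tested, against 22 with DESeq2, 0 with limma voom and 0 with the length offset. Of all genes with a mean CPM above 10, edgeR called 6.37%, DESeq2 28.6% and limma voom 0.0%, and the offset fit called 0. The lists had 11 called with at least 1 count and 8 with CPM above 10 in at least 2 libraries. Those filters called 3105 and 1562 of all genes, and the shares were not computed. Leaving out a library gave 0 to 39 (39 without Control replicate 1, 27 without Control replicate 3, where 45.8% and 42.6% of all genes were called). The 0 came without either INK128 library, where 0 of all genes were called. The log2 ratio of all summed members was -0.084 with library totals, -0.068 without Hist1h1c and -0.0081 to 0.11 leaving out a library. Without its most abundant member the ratio was -0.073 for H1, -0.25 for H2A and 0.43 for H3, and leaving out a library gave 0.12 to 0.57 for H1, -0.11 to 0.26 for H2A and -0.49 to 0.49 for H3. Library totals gave -0.068 for H2A.

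For the tested members and the histone-related genes named whatever their values, log2 fold changes turned sign as follows. Other list genes that turned sign, such as Aurkb, are not listed. The length offset gave -0.31 for Hist1h1c, -0.34 for Hist3h2a, -0.074 for Hist1h4i, -0.019 for Hist1h4h, -0.010 for H2afz, -0.14 for H2afx, 0.070 for Mki67 and -0.092 for Rrm2. Library totals gave -0.017 for Hist3h2a and -0.085 for Zfp473, and limma voom 0.30 for Hist3h2ba. Leaving out 1 library gave ranges of -0.44 to 0.24 for Hist1h2bc, -0.072 to 0.31 for Hist3h2a, -0.94 to 0.58 for Hist2h2be, -0.85 to 0.18 for Hist2h3c1, -0.18 to 1.51 for Hist1h4i, -1.15 to 1.70 for Hist3h2ba, -1.60 to 0.046 for Hist1h2be, -0.21 to 1.73 for Hist1h4h, -1.38 to 0.21 for Hist2h3c2 and -0.58 to 1.37 for Zfp473. Of these range ends, edgeR called those of Hist2h2be (-0.94), Hist3h2ba (1.70), Hist1h4h (1.73) and Zfp473 (1.37) without Control replicate 1, and of Hist1h4i (1.51) and Hist1h2be (-1.60) without Control replicate 3. The cause of these changes was not tested. The calls of H2afv, Snrpe and Snrpg were lost with limma voom, with the length offset and without either INK128 library. Their log2 fold changes were then 1.17, 1.22 and 1.26 with voom, 0.56, 0.56 and 0.63 with the offset, and 1.04 to 1.37 without an INK128 library.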

Other observations

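Of the other marker lists, 0 of 8 granulosa, 0 of 10 oocyte, 0 of 5 steroidogenic, 0 of 6 tested immune and 0 of 5 tested erythroid markers were called by edgeR, with 1, 1, 0, 4 and 0 at an unadjusted p below 0.05, while DESeq2 called 1, 0, 1, 5 and 0 and limma voom none. Over all genes with a mean CPM above 10 these shares were 6.37% by edgeR, 36.4% at the unadjusted p, 28.6% by DESeq2 and 0.0% by limma voom. Of the tested markers, 2 oocyte, 2 immune and 3 erythroid ones were below that level and were tested over genes with a mean CPM above 1, where edgeR called 0.0%. Median log2 fold changes were 0.51, 1.25, -0.73, -1.61 and 1.34. Of 4 endothelial markers 1 was called lower with INK128, Kdr, the VEGF receptor, at 56.2 and 50.5 CPM against 165.7 and 141.7 (log2 fold change -1.54, adjusted p = 0.0464, edgeR), and the list's median was -0.34. Steroidogenic markers summed to 3771 and 4971 CPM with INK128 and to 725 and 10540 CPM in Control replicates 1 and 3, which lay outside the INK128 range on either side.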
